A study of Mus musculus with 18 samples.

Results

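Liver RNA of wild-type male mice was compared between 3 arrays of animals that had received N-nitrosodiethylamine (DEN) and 3 arrays of animals that had received no injection. These 6 arrays were chosen by their labels from the 18 Affymetrix Mouse430_2 arrays of the series, which hold 6 groups of 3. The uninjected wild-type mice (Hmgn1+/+) were collected at 4 weeks. The treated wild-type mice carried the same genotype, received 10 µg of DEN per g of body mass when 4 weeks old, and have the time label 12 weeks, which the series text counts from the injection and the sample titles from no named event. The difference therefore joins DEN, the injection itself and a later age, which cannot be told apart between these groups. For reference, the same pair of groups was taken from mice labelled Hmgn1-/-, and wild-type mice given saline at 4 weeks with the time label 12 weeks are set beside the result at the end. Both genotypes descend from crosses of heterozygotes and were then bred as separate homozygous lines. The labels do not say how many animals stand behind an array, so each p-value rests on the scatter among these samples, which may be technical.

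DEN is a carcinogen that cytochrome P450 enzymes of pericentral hepatocytes, above all Cyp2e1, turn into an agent that alkylates DNA. In male mice a single early dose leads to liver tumours many months later. The liver itself matures after weaning: growth hormone pulses set male-biased expression, sterol and fatty acid synthesis follow feeding and diet through SREBP factors, and clock genes of the PAR bZIP and REV-ERB families rise and fall over each day.

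Each array gives a MAS5 signal, a brightness on a linear scale, and the trimmed mean was 150 on all 18 arrays. The correlation of arrays over probe sets, on log2 values, was 0.968 to 0.976 among the uninjected wild-type arrays, 0.964 to 0.967 among the DEN arrays and 0.956 to 0.971 between the groups. The 3' to 5' ratio of the Gapdh probe sets, which rises with RNA degradation, was 1.13, 2.19 and 1.29 on 4-week replicates 1 to 3 and 1.13, 1.09 and 1.02 on DEN replicates 1 to 3, so that 4-week replicate 2 stood apart. The ratio of Actb was 3.44, 7.28 and 3.79 against 3.21, 3.37 and 2.89. The hepatocyte markers Alb, Apoa1 and Ttr were at the top of the range in both groups, with Alb at 34745 to 41754 at 4 weeks and 34811 to 41486 after DEN. A further hepatocyte marker, Tat, was at 6136 to 7517 and 2213 to 7469 (log2 -0.72, limma, adjusted p 0.139). In the labelled knockout, the 3 tested Hmgn1 probe sets had signals of 6503 to 6864, 1558 to 1802 and 2833 to 2957 at 4 weeks, against 6083 to 7948, 1550 to 1925 and 2982 to 3383 in wild type. Which part of the gene is deleted is not given in the sources used here, so these signals do not check the genotype labels.

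After DEN, 293 genes rose and 315 fell of 12896 genes tested (limma, adjusted p under 0.05, log2 of the signal plus 16), or 2.27% and 2.44%, together 4.71%. Among probe sets, 1190 of 27022 passed (4.4%), 531 up and 659 down, with 5199 at an unadjusted p under 0.05. The changes were mostly small: the median size among called genes was 0.56 in log2, 90 passed 1 and 4 passed 2. The spread estimate borrows from all 18 arrays, and the saline arrays varied least (median within-group SD 0.14, against 0.21 in both groups compared). Without them 448 probe sets passed, without 4-week replicate 2 462, without 4-week replicate 3 622, without DEN replicate 2 572 and without DEN replicate 3 785. With the Gapdh ratio as a covariate 240 passed, and with array medians centred 1384, of which 240 rose and 1144 fell. A gene is called firm below where it also passed without the saline arrays and without each of the 6 arrays in turn, which 141 genes did (1.09%). The word does not cover the Gapdh covariate or a fit of the 6 compared arrays alone. Of the 46 firm genes named in the text 34 passed with the covariate, 41 with the 6 arrays alone and 33 in both. Those not called with the covariate were Cyp51, Dnajb1, Egfr, Gpam, Hmgcs1, Ifi27, Lss, Npas2, Pklr, Pltp, Pmf1 and Ppp1r3c, with an adjusted p of up to 0.121. Cyp51, Dnajb1, Ifi27, Oxt and Pklr were not called with the 6 arrays alone, with an adjusted p of up to 0.0936. The signals of the 3 and 3 arrays did not overlap for 2568 genes (19.9%).

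**Figure D1:**
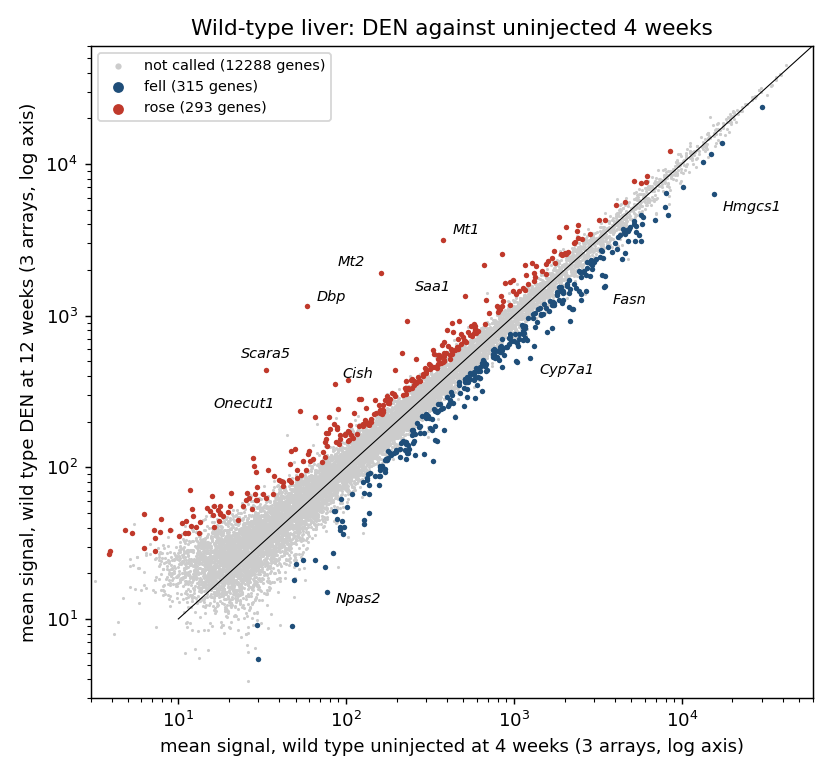
Mean signal of 12896 genes in wild-type liver, uninjected at 4 weeks (horizontal) against DEN at 12 weeks (vertical), both on log axes, each point 1 gene and the line equality. The 293 genes that rose and 315 that fell lie close to the line, apart from Dbp, Scara5, Mt1 and Mt2 at the upper left.

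Genes of the cholesterol pathway formed the list with the highest share of called members. Of 20 measured members 10 fell and 0 rose (50%, against 2.44% falls among all genes), 19 of 20 differences were negative, and the median was -0.53 in log2, against 0.04 over all genes tested. Of the 10, 7 were firm. DEN replicate 2 was the lowest DEN array for 8 of the 10 and replicate 3 for the other two.

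The largest fall was that of Hmgcs1, the cytosolic HMG-CoA synthase, an early enzyme of the mevalonate pathway. Its signal was 12021, 19175 and 15199 on the 4-week arrays and 7936, 3093 and 7863 after DEN, a fall of 1.39 in log2 (SE 0.24, adjusted p 0.00273). The groups did not overlap, and 3 of its other probe sets fell too, by 1.16, 1.01 and 1.20. Idi1, the isopentenyl diphosphate isomerase, went from 4421, 4417 and 4966 to 3141, 1881 and 2708 (log2 -0.86, SE 0.15, adjusted p 0.00205). Fdft1, the squalene synthase, went from 3076, 3668 and 3674 to 1928, 1330 and 2193 (log2 -0.95, SE 0.16, adjusted p 0.00166). These steps lie before lanosterol, and in each of them every DEN array was below every 4-week array.

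Pmvk, the phosphomevalonate kinase, was at 850.9, 853 and 844.6 at 4 weeks and at 525.3, 312.3 and 528.3 after DEN (log2 -0.91, adjusted p 0.00336). Lss, the lanosterol synthase, was at 494.2, 577.3 and 494 and then at 276.3, 264.5 and 337.9 (log2 -0.80, adjusted p 0.00426). Cyp51, the lanosterol demethylase, fell by 0.55 (adjusted p 0.00857). All 3 were firm, though Cyp51 only just, with an adjusted p of 0.0452 without DEN replicate 2. Dhcr7, the last enzyme of the pathway, fell by 1.05 and Hsd17b7, which acts after Cyp51, by 0.65. Both of these calls were lost in 3 of 6 fits without 1 array, with an adjusted p of up to 0.0909 for Dhcr7 (without 4-week replicate 2) and 0.14 for Hsd17b7 (without DEN replicate 2), and a further probe set of Hsd17b7 was at 0.24. Sqle, the squalene epoxidase, did not pass, at -0.59 (adjusted p 0.0534).

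The start regions of these genes are shown because their members fell together and sterol genes are known targets of SREBP with the CCAAT-binding factor NF-Y. RefSeq promoters (GRCm38.p6, 250 bases before to 50 bases after the start) were matched for 16 of the 20 measured members. CCAAT, read on both strands as CCAAT or ATTGG, occurred in 16 of these 16, against 37.5% of 27025 promoters of all genes and 39.8% of 10415 promoters of genes tested. The 16 include 9 called members and others that were not called, so CCAAT did not separate the members that fell from the rest. The classical sterol regulatory element occurred in 0 of 16 (0.0814% of all promoters and 0.048% of those of genes tested). Its looser forms TCACCCCA or TCACNCCAC occurred in 2 of 16 (2.19% of all and 2.39% of genes tested). CACGTG, the E-box, which also is bound by SREBP and clock factors, occurred in 4 of 16 (6.86% of all and 9.73% of genes tested). The search of these genes for CCAAT, TCACCCCA, TCACNCCAC and CACGTG was chosen after the data were seen. Below, capitals mark CCAAT on either strand and, in Hmgcs1, the sterol element form. The stretches are chr13:119690101-119690325 on the plus strand for Hmgcs1, chr13:8885546-8885605 plus for Idi1, chr10:76531528-76531562 plus for Lss and chr5:4104707-4104741 minus for Cyp51, each upstream of the start.
Hmgcs1: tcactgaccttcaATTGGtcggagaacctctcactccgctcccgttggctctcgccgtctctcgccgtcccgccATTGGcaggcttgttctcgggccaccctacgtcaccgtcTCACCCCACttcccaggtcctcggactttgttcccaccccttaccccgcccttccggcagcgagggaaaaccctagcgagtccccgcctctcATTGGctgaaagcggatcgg
Idi1: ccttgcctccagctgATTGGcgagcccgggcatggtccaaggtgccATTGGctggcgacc
Lss: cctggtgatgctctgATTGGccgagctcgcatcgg
Cyp51: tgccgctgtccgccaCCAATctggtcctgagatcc
Hmgcs1 has 3 CCAAT boxes in the stretch shown, Idi1 has 2, and Lss and Cyp51 have 1 each. A match is a description of the letters and not a measured binding site.

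Fatty acid and triglyceride synthesis moved the same way. Of 18 measured members 6 fell and 0 rose (33.3%, against 2.44% falls among all genes), 16 were negative, and the median was -0.33. Fasn, the fatty acid synthase, was at 3455, 3246 and 3555 at 4 weeks and 1418, 1389 and 1792 after DEN, a fall of 1.16 (SE 0.17, adjusted p 0.000745). Acly, which makes cytosolic acetyl-CoA from citrate, went from 5343, 5415 and 5062 to 3436, 2373 and 3531 (log2 -0.78, adjusted p 0.00225). Gpam, the first enzyme of triglyceride assembly, fell by 0.69 (adjusted p 0.00406), while a probe set of it with a mean signal of 55.8 at 4 weeks was at 0.18. Fasn, Acly and Gpam were firm, and for all 6 called members DEN replicate 2 was the lowest DEN array. Acacb, Elovl5 and Elovl6, a carboxylase and a pair of elongases, fell by 0.87, 0.40 and 0.52, but their highest adjusted p without 1 array was 0.05 (without 4-week replicate 2), 0.17 and 0.178 (both without DEN replicate 2).

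Other lipid genes fell or rose singly. Pltp, the phospholipid transfer protein of plasma, went from 3265, 4043 and 3099 to 1644, 959.6 and 2077 (log2 -1.20, SE 0.23, adjusted p 0.0054, firm), while a weaker probe set was at 0.08. Cyp7a1, which opens the main route from cholesterol to bile acids, went from 1390, 1082 and 1283 to 717.7, 286.1 and 575.6 (log2 -1.31, SE 0.23, adjusted p 0.00318, firm). In the bile acid list of 22 genes 4 rose and 1 fell (22.7%, against 4.71% of all genes), with a median of -0.07. The rises were Cyp7b1, an oxysterol hydroxylase (0.57), Slco1a1, an organic anion importer (0.30), and the sterol exporters Abcg5 and Abcg8 (0.52 and 0.53). None of these 4 was firm: without 1 array the adjusted p reached 0.0694 (4-week replicate 2), 0.143 (DEN replicate 1), 0.169 (DEN replicate 2) and 0.0812 (4-week replicate 3).

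**Figure D2:**
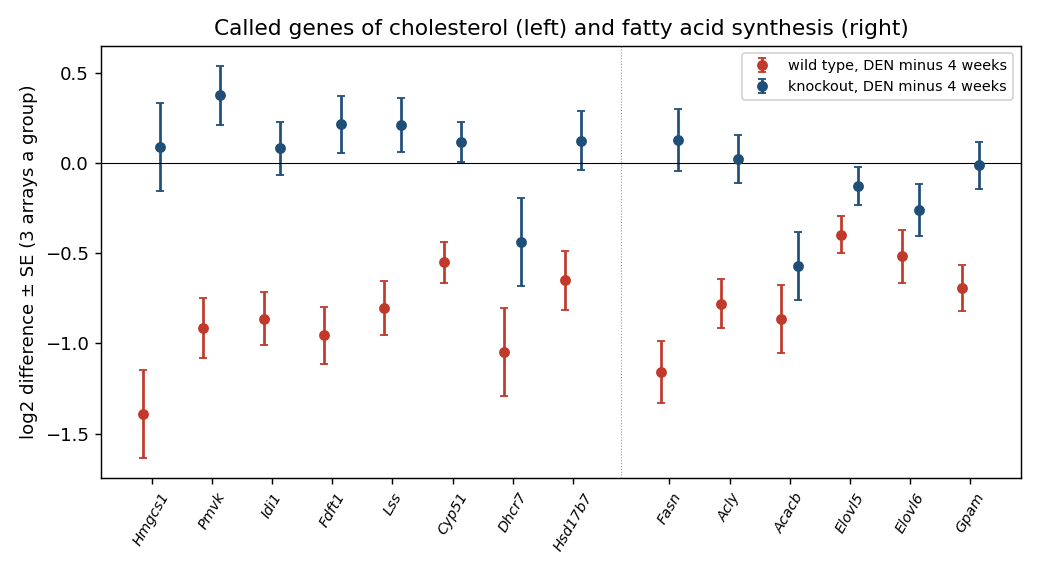
Log2 difference between DEN and uninjected 4-week arrays, with SE, for 8 of the 10 called genes of the cholesterol list (left) and the 6 of fatty acid synthesis (right), in wild type (red) and labelled knockout (blue), 3 arrays a group. The wild-type values run from -1.39 to -0.40, and most knockout values lie near 0.

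Clock genes changed in both directions. Of 19 measured members 5 rose and 4 fell (47.4%, against 4.71% of all genes), the median was 0.55, and 6 of the 9 were firm. Dbp, a PAR bZIP factor that is an output of the clock, had the largest difference of all genes. Its signal was 46.9, 63.6 and 65.4 at 4 weeks and 610.2, 1356 and 1489 after DEN (log2 3.88, SE 0.42, adjusted p 4.83e-05), a 14.7-fold rise on that scale. Every DEN array was far above every 4-week array, and its other tested probe set rose by 3.26.

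Tef, of the same family, went from 389.4, 453.5 and 434.1 to 849.5, 823.9 and 1001 (log2 1.04, SE 0.16, adjusted p 0.001). Nr1d2, which encodes the repressor REV-ERB beta, went from 1158, 1196 and 1196 to 1654, 1996 and 1901 (log2 0.63, adjusted p 0.00225). Bhlhe40, a repressor of the positive limb, rose by 0.96 (adjusted p 0.00387), and Usp2, a clock-driven deubiquitinase, by 1.29. These genes are known to peak late in the light phase or around dusk in mouse liver.

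The other called clock genes were lower. Npas2, a partner of Arntl, was at 49.1, 91.8 and 89.6 at 4 weeks and at 5.36, 19.9 and 19.9 after DEN (log2 -1.58, SE 0.30, adjusted p 0.00478). Nfil3, which competes with Dbp for its sites, went from 622.5, 565.8 and 578.2 to 404.5, 230.7 and 221.5 (log2 -1.05, SE 0.15, adjusted p 0.000476). Arntl, which encodes BMAL1, and Rora fell by 0.75 and 0.51. The calls of Usp2, Arntl and Rora were lost in 1, 4 and 2 of 6 fits, with an adjusted p of up to 0.0507 (without 4-week replicate 2), 0.136 (without DEN replicate 3) and 0.0672 (without DEN replicate 2), and a weak probe set of Rora was at 0.41. The labels give no time of day for the collection, whose part in these differences was not tested.

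**Figure D3:**
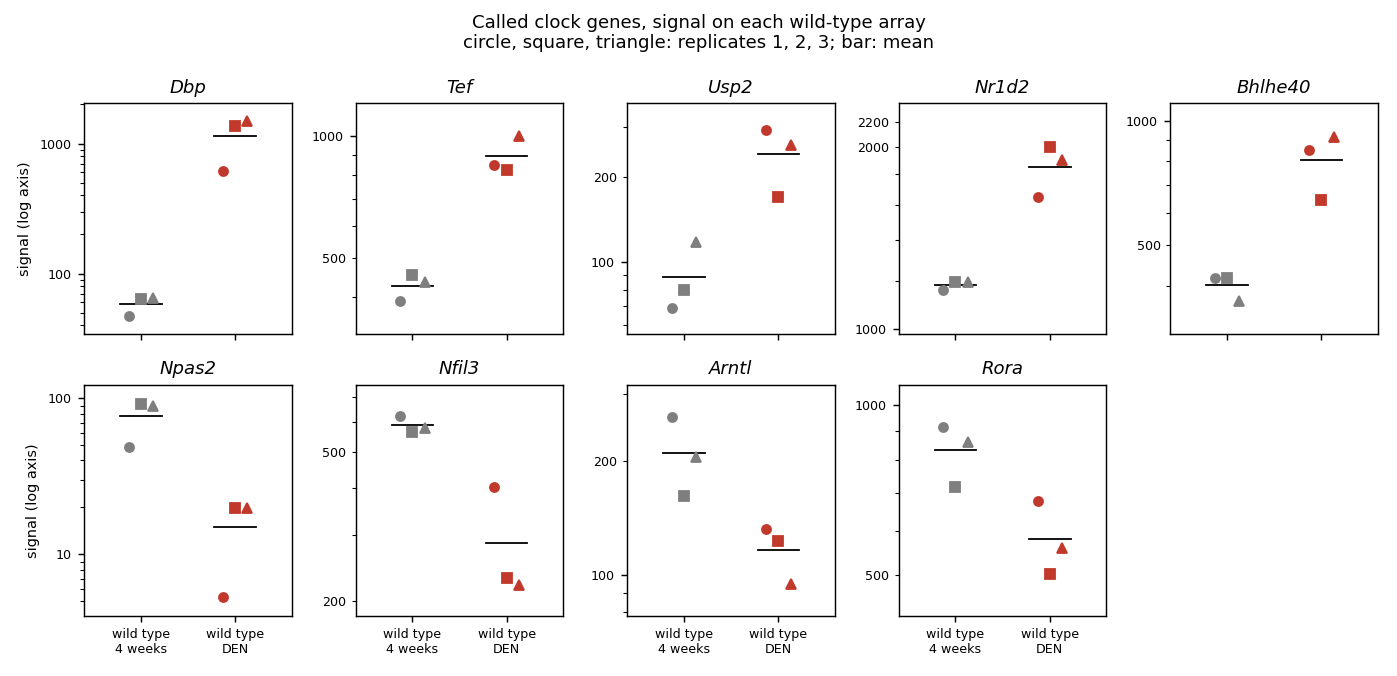
Signal on each wild-type array, on log axes with a scale of their own per gene, for the 9 called clock genes, uninjected at 4 weeks (grey) and after DEN (red). The 3 and 3 arrays do not overlap for any of the 9 genes, which were picked as called in this same comparison (19.9% of all genes do not overlap). Dbp shows the widest gap.

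Acute phase genes, which hepatocytes switch on under interleukin 6 and related signals, were higher after DEN. Of 27 measured members 10 rose and 0 fell (37%, against 2.27% rises among all genes), 25 were positive, and the median was 0.29, with 6 of the 10 firm. Saa1, a serum amyloid A protein, went from 516, 544.9 and 475.1 to 922.1, 1908 and 1208 (log2 1.30, SE 0.17, adjusted p 0.000188), and a probe set that shares sequence with related transcripts rose by 1.24. Saa2 rose by 0.92 (adjusted p 0.000966). Lcn2, the iron-siderophore binding lipocalin, went from 24.8, 34.2 and 26.1 to 50.5, 139.1 and 115.6 (log2 1.33, SE 0.25, adjusted p 0.00525). Steap4, a metalloreductase, rose by 0.89 (adjusted p 0.000405). In Saa1, Saa2, Lcn2 and Steap4 the groups did not overlap.

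Socs3, the feedback inhibitor of interleukin 6 signals, rose by 1.28 and Orm2, an orosomucoid, by 0.80. Both calls were lost in 5 of 6 fits, with an adjusted p of up to 0.0818 (without DEN replicate 3) and 0.152 (without DEN replicate 2). Neither was called without the saline arrays.

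The metallothioneins, small proteins that bind zinc and copper and respond to metals and glucocorticoids, differed widely between the DEN arrays. Mt1 was at 429, 351.8 and 355.5 at 4 weeks and at 1528, 660.9 and 7324 after DEN (log2 2.33, SE 0.58, adjusted p 0.0268). Mt2 was at 153, 192.5 and 138.7 and then at 757.6, 283.3 and 4661 (log2 2.54, SE 0.69, adjusted p 0.0381). All 3 DEN arrays were above all 4-week arrays, but replicate 3 was several times the others. The calls were lost in 3 and 5 of 6 fits, and without DEN replicate 3 the adjusted p was 0.116 and 0.171. The Mt2 promoter is shown for its metal response elements, here the core TGCACNC or its form TGCGCNC on either strand, which 23.8% of all promoters and 33% of those of genes tested hold in the same window. The stretch is chr8:94172380-94172589 on the plus strand of GRCm38.p6 (RefSeq), and the capitals mark its 3 matches.
Mt2: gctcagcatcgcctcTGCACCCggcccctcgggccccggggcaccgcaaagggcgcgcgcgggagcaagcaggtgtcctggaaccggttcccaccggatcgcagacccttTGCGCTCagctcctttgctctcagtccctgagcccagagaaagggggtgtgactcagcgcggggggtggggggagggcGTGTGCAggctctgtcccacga

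Scara5, a scavenger receptor that takes up ferritin, had the second largest difference. It was at 27.9, 38.6 and 33.3 at 4 weeks and at 278.5, 307.7 and 721.3 after DEN (log2 3.07, SE 0.27, adjusted p 4e-06). The groups did not overlap and the call was firm, while a probe set near the lower end of the range, with mean signals of 30.0 and 45.2, was at 0.46 (adjusted p 0.358). It was the 1 called gene of 13 in the iron handling list (7.69%, against 4.71%).

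Genes of the growth hormone and IGF list changed in both directions. Of 13 measured members 3 rose and 1 fell (30.8%, against 4.71% of all genes), 7 differences were positive and 6 negative, and the median was 0.01. Cish, a feedback inhibitor that STAT5 induces, went from 79.8, 99.1 and 78.7 to 328.8, 528.7 and 206.4 (log2 1.77, SE 0.26, adjusted p 0.00058, firm). Socs2, a further STAT5 target, went from 96.2, 118 and 92.9 to 234.6, 671.6 and 214.8 (log2 1.53, adjusted p 0.0158). In both genes DEN replicate 2 was the highest array. Igf1, the growth factor that liver secretes under growth hormone, rose by 0.41 (adjusted p 0.0117), while 2 of its 3 other probe sets were at 0.00 and 0.16. The Socs2 call was lost without DEN replicate 2 (adjusted p 0.0871) and that of Igf1 without 4-week replicate 2 (adjusted p 0.0623). The gene that fell was Stat5b (-0.45, adjusted p up to 0.125 without DEN replicate 3), while a weak probe set of it, with mean signals of 32.5 and 38.9, was at 0.39.

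Of 18 hepatocyte identity genes 1 passed (5.56%, against 4.71%). It was Onecut1, which encodes the factor HNF6 and went from 51.7, 68.2 and 40.2 to 209.7, 322.1 and 169.2 (log2 1.82, SE 0.23, adjusted p 0.000174, firm), while its other probe set rose by 2.65. DEN replicate 2 was the highest array here too.

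Male-biased liver genes rose in 6 of 13 measured members and fell in 0 (46.2%, against 2.27% rises among all genes), with a median of 0.30. Of the differences 10 were positive and 3 negative. The lowest was that of Elovl3, at -0.50, which did not pass (adjusted p 0.0615). The summed signals overlapped, at 94224 to 105144 at 4 weeks and 91064 to 112145 after DEN. Ugt2b38, a glucuronosyltransferase, went from 229, 183.6 and 234.6 to 579.7, 581.2 and 533.1 (log2 1.33, SE 0.17, adjusted p 0.000174, firm). Egfr, the epidermal growth factor receptor, rose by 0.81 (adjusted p 0.00969, firm), with its 5 other tested probe sets between -0.15 and 0.54. Serpina12 (0.64), Cyp7b1 (0.57), Hsd3b5, a male-specific steroid dehydrogenase (0.43), and Slco1a1 (0.30) rose, but none of them was firm. Without 4-week replicate 2 only 2 of the 6 were called. Serpina12 reached an adjusted p of 0.0878 there, and Hsd3b5 0.212 without DEN replicate 2. Of 10 measured female-biased and juvenile genes 0 passed in limma, with 3 at an unadjusted p under 0.05 and a median of 0.20.

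Genes of glucose handling leaned down. Of 14 measured members 3 fell and 0 rose (21.4%, against 2.44% falls among all genes), 13 were negative, and the median was -0.50. Ppp1r3c, a glycogen-targeting subunit of protein phosphatase 1, went from 1624, 1752 and 1699 to 823.1, 775.7 and 904.2 (log2 -1.01, SE 0.21, adjusted p 0.00958, firm), while a weak probe set was at 0.25. Irs2, an adaptor of the insulin receptor, went from 93.5, 103.1 and 92.7 to 52.5, 47.3 and 21.2 (log2 -1.05, adjusted p 0.012), a call lost without DEN replicate 3 (adjusted p 0.0582). Pklr, the liver pyruvate kinase, fell by 0.53 (firm). Outside this list, Ppp1r3g, a related glycogen-targeting subunit, went from 132.4, 122.7 and 127.7 to 74.7, 9.47 and 50.7 (log2 -1.42, adjusted p 0.0155, and 0.0685 without DEN replicate 2).

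Of 21 measured PPAR-alpha targets and fatty acid oxidation genes 2 rose and 3 fell (23.8%, against 4.71% of all genes), with a median of 0.02 and none of them firm. Pdk4, the kinase that shuts off pyruvate dehydrogenase in fasting, was at 268.2, 244.8 and 253 at 4 weeks and at 208.4, 61.4 and 91.8 after DEN (log2 -1.14, adjusted p 0.013, and 0.0722 without DEN replicate 2). Angptl4, a lipase inhibitor, fell by 0.57, while Cpt1a, the entry enzyme of mitochondrial oxidation, and Creb3l3, a liver transcription factor, rose by 0.36 and 0.35. Their adjusted p reached 0.105 (without DEN replicate 2), 0.0812 (without DEN replicate 3) and 0.0581 (without DEN replicate 2).

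Targets of BMP and TGF-beta split. Id3, an inhibitor of DNA-binding factors, went from 334.2, 306.4 and 346.4 to 522.5, 652.1 and 599.8 (log2 0.81, SE 0.13, adjusted p 0.000966, firm). Id1 was at 162.8, 95.1 and 133.5 and then at 250.3, 225 and 258.7 (log2 0.86, adjusted p 0.0148), and Id2 rose by 0.73. Atoh8, a further BMP target, was at 75.9, 96.01 and 77.1 and then at 15.2, 8.21 and 57.97 (log2 -1.37, adjusted p 0.0228). The adjusted p of Id1 was 0.0896 without 4-week replicate 2, and those of Id2 and Atoh8 were 0.103 and 0.114 without DEN replicate 2. The list of 18 genes had 3 rises and 1 fall (22.2%, against 4.71% of all genes) and a median of 0.02.

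Heat shock genes fell in 3 of 16 measured members (18.8%, against 2.44% falls among all genes), with 8 differences positive, 8 negative and a median of 0.02. Dnajb1, a co-chaperone, fell by 0.67 (adjusted p 0.00763, firm), while a further probe set was at 0.03. Hspa1b, the inducible HSP70, was at 2319, 1716 and 2468 at 4 weeks and at 1844, 554.2 and 366.8 after DEN (log2 -1.54, adjusted p 0.0479), and Hspa1a fell by 0.94. The groups overlapped for Hspa1b, since DEN replicate 1 was within the 4-week range. Its call was lost in 5 of 6 fits (adjusted p 0.196 without DEN replicate 3), as was that of Hspa1a (0.195 without DEN replicate 2). Hspa1a and Hspa1b are near-identical copies, so their signals may be shared. Tsc22d3, a glucocorticoid-induced gene, went from 2289, 2197 and 2263 to 1727, 648.1 and 927.1 (log2 -1.14, adjusted p 0.0202, and 0.11 without DEN replicate 2). There too DEN replicate 1 was the DEN array nearest to the 4-week level, but it lay below all 4-week arrays.

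In the P450 list of 24 genes 1 rose and 1 fell (8.33% called, against 4.71%), and the median was -0.05. Cyp2e1 was at 25935, 25909 and 27899 at 4 weeks and at 28226, 30074 and 24854 after DEN, a difference of 0.06 (95% interval -0.14 to 0.26, adjusted p 0.794). Cyp1a2, an aryl hydrocarbon receptor target, fell by 0.52 and Cyp2c70, which hydroxylates bile acids in mice, rose by 0.41, with an adjusted p of 0.0621 and 0.0928 without 4-week replicate 2. The receptor gene itself, Ahr, went from 1161, 1177 and 1154 to 879.99, 533.4 and 727.8 (log2 -0.72, adjusted p 0.00498, firm).

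Of 27 measured glutathione transferases and NRF2 targets 5 fell and 0 rose (18.5%, against 2.44% falls among all genes), with a median of -0.17. Gclc, the catalytic subunit of the first step of glutathione synthesis, went from 4935, 4388 and 4980 to 3133, 3508 and 2720 (log2 -0.61, SE 0.10, adjusted p 0.001, firm), and its other probe set fell by 0.61 too. Gstm3 fell by 0.51, with an adjusted p of 0.0607 without DEN replicate 2.

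Of 26 measured p53 targets 1 passed (3.85%, against 4.71%) and the median was 0.01. That gene, Trp53inp1, an inducer of autophagy and cell death, went from 2536, 2412 and 2532 to 2102, 964.3 and 1069 (log2 -0.94, adjusted p 0.0129, and 0.0741 without DEN replicate 2). Cdkn1a, the p21 inhibitor of the cell cycle, did not pass. It was at 313.5, 557.4 and 455.8 at 4 weeks and at 387.3, 140.2 and 138 after DEN (log2 -1.07, adjusted p 0.0554). Its groups overlapped through DEN replicate 1.

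Of 38 measured DNA repair genes 1 rose and 1 fell (5.26% called, against 4.71%). Ercc8, of transcription-coupled repair, rose by 0.91 and Lig3, a ligase of base excision repair, fell by 0.57, but the adjusted p reached 0.121 (without DEN replicate 2) and 0.208 (without 4-week replicate 2), and 2 further probe sets of Lig3 were at 0.09 and 0.06. Of 11 measured mitosis genes 0 passed in limma and 0 had an unadjusted p under 0.05, while 10 of the 11 differences were positive and the median was 0.31, with summed signals of 994.4 to 1224 at 4 weeks and 1170 to 1339 after DEN. Of 24 DNA replication genes 3 rose (12.5%, against 2.27% rises among all genes), 18 were positive, and the median was 0.16. The genes were Mcm10 (0.67, firm), E2f8 (1.10) and Cdt1 (0.79). A weak probe set of Mcm10 was at -0.37, and the adjusted p of E2f8 reached 0.127 (without DEN replicate 2) and that of Cdt1 0.105 (without DEN replicate 3).

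Of 13 measured fetal liver, progenitor and tumour markers 1 passed (7.69%, against 4.71%). Tff3, a trefoil peptide, went from 32.9, 23.6 and 27.3 to 80.99, 102.9 and 163.5 (log2 1.54, SE 0.25, adjusted p 0.0012, firm). Afp, the classic fetal and tumour marker, was at 27.7, 44.02 and 30.1 at 4 weeks and at 26.9, 42.97 and 47.7 after DEN, so that the groups overlapped. Of 10 imprinted growth genes 0 passed in limma, with 2 at an unadjusted p under 0.05.

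Beyond the lists, the largest rises with a signal of at least 100 included Slc25a30, a mitochondrial carrier, which went from 276.4, 181.3 and 230.9 to 642.7, 1516 and 616.1 (log2 1.83, adjusted p 0.00134). Phlda1 went from 818.2, 882.4 and 839.8 to 2711, 3281 and 1680 (log2 1.52, adjusted p 0.00766). Rgs3, a regulator of G protein signals, rose by 1.49 and Oxt, the oxytocin gene, by 1.31. These 4 were firm, though a weak probe set of Rgs3 was at -0.12. The pseudogene Serpina4-ps1 rose by 1.50 (adjusted p 0.0701 without DEN replicate 2).

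The largest falls included Dock6, a guanine nucleotide exchange factor, from 133.8, 148.1 and 129.9 to 37.2, 54.2 and 59.2 (log2 -1.22, SE 0.16, adjusted p 0.00029). Camk1d, a calcium-dependent kinase, fell by 1.06 and its 2 other probe sets by 1.08 and 1.28. Slc45a3, a sugar transporter, fell by 1.06, Aasdh by 1.13, Tmie by 1.09, Pmf1 by 1.33 and the nuclear RNA Neat1 by 1.06. These 7 were firm, while a further probe set of Tmie was at 0.41 and one of Neat1 at 0.33. Snai2, a repressor of epithelial genes, fell by 1.24, with an adjusted p of 0.0843 without DEN replicate 2.

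**Figure D4:**
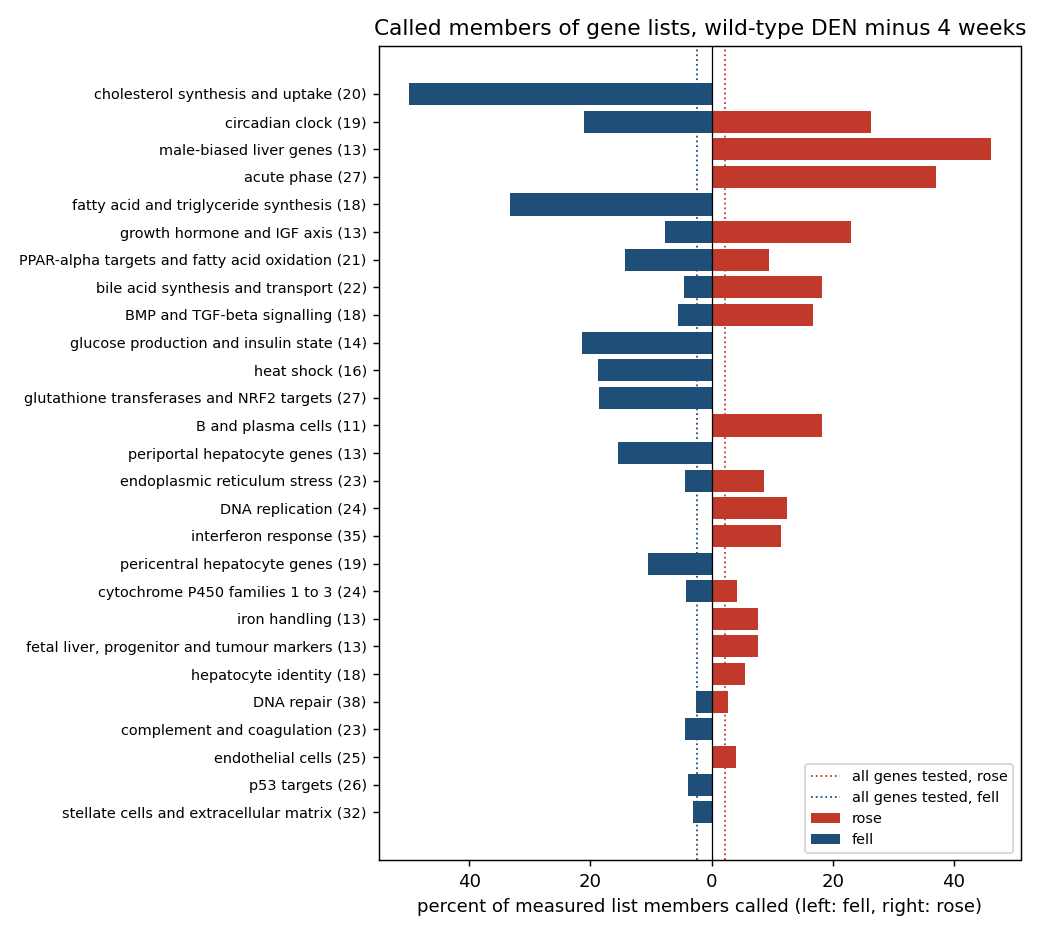
Percent of the measured members (number in parentheses) of each gene list that rose (right, red) or fell (left, blue) in wild-type DEN minus 4 weeks, for lists with 10 or more measured members and at least 1 call; dotted lines mark all genes tested, 2.27% and 2.44%. The longest bars of falls are those of cholesterol synthesis (50%) and fatty acid synthesis (33.3%), and the longest of rises those of male-biased (46.2%) and acute phase genes (37%).

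Few markers of other liver cells passed the test. In bulk tissue, fewer cells of a type and less RNA per cell cannot be told apart. Of 22 Kupffer cell and macrophage genes 0 passed in limma (1 at an unadjusted p under 0.05), with summed signals of 11927 to 12821 at 4 weeks and 11088 to 14311 after DEN, and Clec4f, which defines Kupffer cells, was at 606.4 to 635.7 and 614.1 to 696.7. Of 32 stellate cell and matrix genes 1 fell (3.12% called, against 4.71%), 24 differences were negative, and the median was -0.18. The summed signals were 10726 to 12157 at 4 weeks and 9113 to 10617 after DEN, so that all DEN arrays were lower, and Dcn, a matrix proteoglycan, was at 2783 to 2881 and 2209 to 2446 (adjusted p 0.0664). The other 8 differences were positive. The highest was that of the weakly detected collagen gene Col1a1, at 10.0, 44.7 and 23.1 and then at 45.1, 45.6 and 48.4 (log2 0.66, adjusted p 0.161). Des, a stellate cell marker, was at 0.14 (adjusted p 0.826). The called gene was Acta2, the smooth muscle actin, at 134.7, 583 and 272.6 at 4 weeks and 89.2, 86.2 and 152.9 after DEN (log2 -1.28, adjusted p 0.0377), whose groups overlapped and whose call was lost without 4-week replicate 2 (adjusted p 0.219).

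Of 25 endothelial genes 1 rose (4% called, against 4.71% of all genes), 17 differences were negative, and the median was -0.10. The sums were lower on all DEN arrays, at 8007 to 8147 and 6801 to 7783, and Stab2, a receptor of sinusoidal endothelium, was at 433 to 445.5 and 360.6 to 406.2 (adjusted p 0.266). The called gene was Lyve1, a hyaluronan receptor of sinusoids, at 1.06 (adjusted p 0.0198, and 0.12 without 4-week replicate 2). Of 11 B and plasma cell genes 2 rose, Blk and Jchain (18.2% called, against 4.71% of all genes), neither firm. Their adjusted p reached 0.109 (without DEN replicate 2) and 0.206 (without 4-week replicate 3). The sums of the list were 373.3 to 430.6 and 429.03 to 678.1, and Blk was at only 3.44 to 4.28 at 4 weeks. None of 9 T and NK cell, 11 monocyte and neutrophil, 5 bile duct, 7 erythroid, 5 adipose or 4 muscle genes passed in limma, where 2, 1, 2, 0, 1 and 0 had an unadjusted p under 0.05. The T and NK cell sums were 174.1 to 269.3 and 271.1 to 305.8, again without overlap, though only just and from weak signals. Such a gap was not particular to these lists. The erythroid sums were 3339 to 3544 and 3550 to 3625, and those of antigen presentation 35569 to 38338 and 38431 to 39996, with no called gene in either list. The part of shifts in the cell type sums in the results above was not tested. Of 3 measured pancreatic genes 1 rose (33.3% called, against 4.71% of all genes). It was Cela1 (0.50, adjusted p 0.0929 without 4-week replicate 2), which liver also expresses. Cpa1, which marks the exocrine pancreas, was at 1.30 to 10.5 and 1.83 to 6.16. Of 35 interferon response genes 4 rose and 0 fell (11.4%, against 2.27% rises among all genes), with a median of 0.26. Ifi27 (0.49, adjusted p 0.0064) was firm, and Irf9 (0.68) reached 0.122 without 4-week replicate 2.

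The same comparison in the labelled knockout, which shares no array with it, called 1133 genes (8.79%; 4.32% up and 4.47% down). Of the 608 genes called in wild type, 437 (71.9%) had the same sign in the knockout, against 58.6% of all genes tested. Of the 608, 107 were called there with the same sign, which is 17.6% of the wild-type and 9.44% of the knockout calls, and 16 were called with the opposite sign. A test of the difference between the responses (the interaction) called 139 genes (1.08%), of which 75 were among the 608. That count rests on the shared spread too: 206 probe sets passed (0.762%), against 36 without the saline arrays. With the Gapdh ratio as a covariate, 8 probe sets passed in the knockout comparison, against 2226 (8.24%) without it. That ratio was 1.70, 1.35 and 1.45 on the knockout 4-week arrays and 0.94, 0.91 and 0.93 on the knockout DEN arrays, without overlap. In the knockout the ratio and the comparison therefore cannot be told apart.

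Cholesterol genes did not move this way in the knockout. Of 20 members 0 fell and 3 rose there (4.47% and 4.32% of all genes), and the median was 0.20. A called difference between the responses was found for 7 of them (1.08% of all genes). The knockout signals of Pmvk were 375.3, 453.4 and 409.5 at 4 weeks and 525.6, 678.4 and 438.1 after DEN, and its responses differed by 1.29 (adjusted p 0.0127). Fasn was at 1338, 1180 and 1326 and then at 1861, 1417 and 1040 (difference of responses 1.29, adjusted p 0.0159). In both genes the knockout 4-week arrays lay at or below the level of the wild-type DEN arrays. Cyp7a1 rose in the knockout from 228.3, 187.6 and 201.9 to 749.2, 1103 and 557.3 (log2 1.83), and the responses differed by 3.15 (adjusted p 5.96e-05). These 3 differences also passed without the saline arrays and without each of the 12 arrays in turn.

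Scara5 and Id1 went the opposite way in the knockout. Scara5 went from 503.3, 571.8 and 500.1 to 304.1, 221.2 and 135.4 (log2 -1.26; difference of responses -4.33, adjusted p 4.24e-06). Id1 went from 842.2, 786.6 and 728.8 to 304.6, 369.9 and 195.2 (log2 -1.43; difference -2.29, adjusted p 0.000309), and Id3 fell by 0.45 there (difference -1.26, adjusted p 0.0017). After DEN the 2 genotypes overlapped in all 3 genes, and the 4-week arrays were far apart. Egfr, Ugt2b38 and Cyp2c70 differed as well, by -1.38, -1.36 and -0.79 (adjusted p 0.0111 each).

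Some genes called in wild type also passed in the knockout with the same sign. Cish rose there by 2.16 (adjusted p 0.000104), Onecut1 by 1.33 (adjusted p 0.00161), Saa1 by 0.77 (adjusted p 0.00705), Saa2 by 0.76, Lcn2 by 0.99 and Rgs3 by 1.07, while Gclc fell by 0.55 and Slc45a3 by 0.78. Their differences of responses did not pass, which does not show that the responses were equal. Over the acute phase list, 6 genes rose and 3 fell in the knockout (4.32% and 4.47% of all genes), and the median was -0.03. Of these 27 genes 4 had a called difference of responses (1.08% of all genes). Steap4 was at -0.09 there and its responses differed by -0.97 (adjusted p 0.0122). Mt1 and Mt2 were at -1.23 and -1.58 and did not pass (adjusted p 0.205 and 0.164), and their responses differed by -3.56 and -4.13 (adjusted p 0.0447 and 0.049).

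Dbp rose by 1.48 in the knockout (adjusted p 0.0336), from 187.3, 188.5 and 179 to 527, 218.9 and 1351, and the difference of -2.40 (95% interval -3.64 to -1.16) did not pass (adjusted p 0.0595). Over the clock list of 19 genes, 2 rose and 7 fell there (4.32% and 4.47% of all genes), with a median of -0.19. Of the 22 Kupffer cell and macrophage genes 11 rose in the knockout, where 4.32% of all genes rose, and 0 in wild type, where 2.27% did. A called difference of responses was found for 2 of the 22 (1.08% of all genes).

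**Figure D5:**
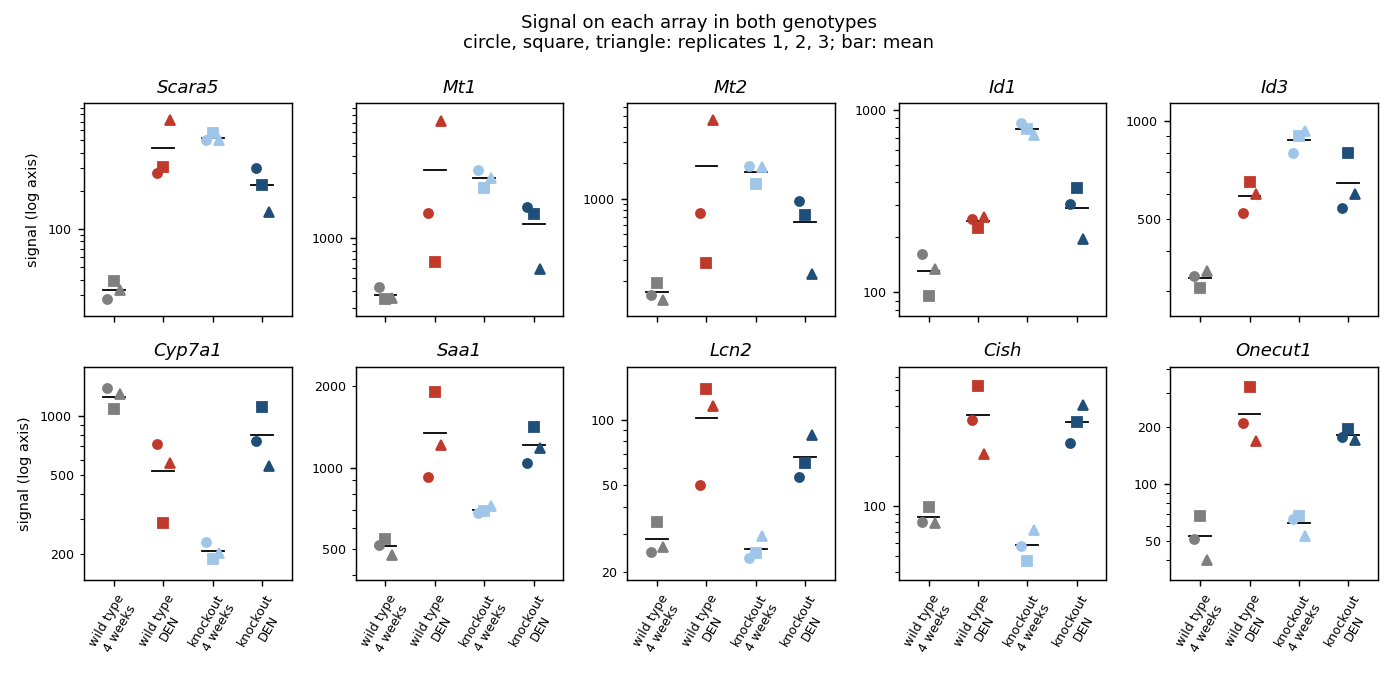
Signal on each array for 10 genes in wild type (grey 4 weeks, red DEN) and labelled knockout (light blue 4 weeks, dark blue DEN), on log axes with a scale of their own. The 4-week arrays of the genotypes do not overlap for Scara5, Mt1, Mt2, Id1, Id3, Cyp7a1 and Cish. Of these, Scara5, Id1, Id3 and Cyp7a1 changed in opposite directions, and Mt1 and Mt2 did not pass in the knockout. Saa1, Lcn2, Cish and Onecut1 rise in both. The 10 genes were picked from these same results, Cyp7a1 and Id1 also for their large interactions. The share of all genes without overlap between the genotypes at 4 weeks was not counted.

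Wild-type saline arrays with the time label 12 weeks carry the time without DEN, but they have a narrower signal range, with highest signals of 16720 to 21752 against 46967 to 60173 on the 6 arrays compared, and a contrast with them shares arrays with the comparison above. Values after quantile normalization are therefore set side by side with no count. For Dbp, saline minus 4 weeks was 2.69 and DEN minus saline 1.16. For Scara5 these were 1.99 and 1.05, for Onecut1 1.06 and 0.74, for Cish 1.04 and 0.71, and for Saa1 0.81 and 0.49. In these 5 genes the saline mean lay between the others.

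Of the falling genes, Hmgcs1 was at -0.20 in saline minus 4 weeks and -1.06 in DEN minus saline, Gpam at 0.02 and -0.66, and Fdft1 at -0.23 and -0.67. Pmvk had the reverse order, at -0.73 and -0.16, as had Tmie, at -0.87 and -0.22. On the deposited values without quantile normalization, Hmgcs1 was at -0.88 and -0.51, Gpam at -0.36 and -0.33, and Fdft1 at -0.36 and -0.60. Which part was larger thus turned with the normalization for Hmgcs1 and Gpam, and not for Fdft1. After quantile normalization the list medians were as follows. The cholesterol list had medians of -0.23 and -0.25, the acute phase list 0.03 and 0.25, the glucose list -0.17 and -0.37, and the clock list 0.31 and 0.13. The saline group and the signal range of its arrays cannot be told apart.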

How the data were processed

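The deposited table holds linear intensity values for each probe set, which the authors made with MAS5 per the submitters' processing notes (version and settings not given in the sources used here). The trimmed mean of 150 was recomputed from the values. The 64 controls were left out, log2 of the value plus 16 was used, and probe sets at or above the 40th percentile of the mean over 18 arrays were tested (27022 of 45037). Differences were tested two-sided with limma 3.58.1 in R 4.3.3 (lmFit, eBayes with an intensity trend, 1 coefficient per group, 12 residual and 9.19 prior degrees of freedom) and adjusted by Benjamini-Hochberg at 0.05. Adding 16 makes the differences of weak genes smaller. "Rose" and "fell" mean past that threshold, SE is that of the fitted difference (n = 3 a group), and arrays have no depth: their number limits the precision. The platform annotation gave 34945 probe sets 1 gene, 932 several and 9160 none; a gene is its tested probe set of highest mean. The fit was tested on simulated data. Named genes are the 15 largest called rises and falls with a signal of at least 100 and no overlap, up to 8 called members a direction of each of 42 lists (or 2 with the smallest p), a short panel, and the 5 largest interactions each way. The comparison, lists and rules were chosen with earlier results of these data known, so no count here is independent support. Replicate numbers did not pair the arrays (correlations of deviations between -0.02 and 0.04). Alternatives were other normalizations, added constants, filters, spread models, array sets and a replicate block.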

Additional observations from a re-analysis of the deposited data

Results flagged for a closer look

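The results below differed between the genotypes by limma's test of the interaction (knockout response minus wild-type response, log2), and 139 genes of 12896 did so (1.08%). Responses were lower in the labelled knockout for Scara5 (-4.33), Mt2 (-4.13), Mt1 (-3.56), Id1 (-2.29), Hes1, a Notch target (-1.57), Egfr (-1.38), Ugt2b38 (-1.36), Id3 (-1.26), Bhlhe40 (-1.11), Id2 (-1.04), Steap4 (-0.97) and Cyp2c70 (-0.79). They were higher for Cyp7a1 (3.15), Pmf1 (1.55), Fdps, the farnesyl diphosphate synthase (1.55), Pltp (1.49), Hmgcs1 (1.48), Pmvk (1.29), Fasn (1.29), Dock6 (1.19), Fdft1 (1.17), Neat1 (1.06), Lss (1.02), Tmie (0.96), Idi1 (0.94), Acly (0.80) and Cyp51 (0.67). Fdps and Hes1 were not called in wild type. Without the saline arrays 10 of these 27 passed: Scara5, Cyp7a1, Pmvk, Fasn, Id1, Id3, Egfr, Ugt2b38, Bhlhe40 and Cyp2c70. The calls of Mt1, Mt2 and Id2 were lost in 10 of 12 fits without 1 array, and those of Acly, Bhlhe40, Cyp51 and Tmie in 9.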

How the results depend on the processing

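The wild-type count of 1190 probe sets was 556 with no intensity trend, 693 with array quality weights, 229 with the compared groups alone, 448 without the saline arrays, 240 with the Gapdh ratio as a covariate and 462 to 1468 without 1 array in turn. The knockout count of 2226 was 1323 with no trend, 1065 without the saline arrays, 8 with the Gapdh covariate and 790 to 1908 without 1 array. The interaction count of 206 was 101 with centred medians, 120 with no filter, 19 with no trend, 36 with the compared groups alone or without the saline arrays, and 61 to 354 without 1 array. The rise share of wild-type calls was 44.6%, and 17.3% with centred medians, which moved the median of all probe sets from 0.03 to -0.06. Cyp2e1, not called, turned to -0.038 with centred medians and ran from -0.00425 (without DEN replicate 2) to 0.133 without 1 array. Mgst3 was at 0.0894 as the mean over its probe sets. Replicate numbers did not pair the arrays; the replicate block gave 1100, 2023 and 184 probe sets. The cause of these shifts was not tested. Array number and weak signals limit the precision.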

Other observations

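Secretory and zonated hepatocyte genes held a few more changes, none of them firm unless named so. Of 23 measured genes of endoplasmic reticulum stress 2 rose and 1 fell (13%, against 4.71% of all genes), and the median was 0.20. Xbp1, a factor that expands the secretory pathway, was at 5511, 6294 and 5347 at 4 weeks and at 6863, 8375 and 7064 after DEN (log2 0.38, adjusted p 0.0349, and 0.159 without DEN replicate 2), and 2 of its other probe sets rose by 0.61 and 0.81. Chac1, which degrades glutathione, rose by 0.68 and Dnajb9, a chaperone of the lumen, fell by 0.38 (adjusted p up to 0.134 without 4-week replicate 1 and 0.131 without DEN replicate 3). Of 19 pericentral genes Ahr (firm) and Cyp1a2 fell (10.5%, against 2.44% falls among all genes), and of 13 periportal genes (15.4%) Ass1 and Etnppl, by 0.90 and 0.41 (adjusted p up to 0.185 without 4-week replicate 2 and 0.17 without DEN replicate 3). Ass1 rests here on a weak probe set of 102.6 to 170.6 at 4 weeks. Of 23 complement and coagulation genes 1 was called (4.35%, against 4.71% of all genes). Proc, the protein C zymogen, fell by 0.31 (adjusted p 0.139 without 4-week replicate 3).

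The other falling genes of glutathione and NRF2 biology were Cbr1 (-0.41), Mgst3 (-0.44) and Ugdh (-0.35). A weak probe set of Mgst3, with mean signals of 10.1 and 23.3, was at 0.62, and the mean over both was 0.09, so its direction turns with the probe set. All 3 calls were lost without 4-week replicate 3 (adjusted p 0.084, 0.0715 and 0.0818). The other rising interferon genes were Iigp1 (0.32) and Irgm1 (0.42), with an adjusted p of 0.113 without DEN replicate 2 and 0.189 without 4-week replicate 2. By limma, 0 genes passed among 15 of ribosome biogenesis, 12 of antigen presentation, 18 immediate early genes and 6 of the HMG family, where 3, 1, 6 and 0 had an unadjusted p under 0.05. In the knockout 6 of the 18 immediate early genes fell, where 4.47% of all genes fell.

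The DEN arrays were not alike. Of the 608 called genes, the DEN array farthest from the 4-week level was replicate 1 for 145, replicate 2 for 266 and replicate 3 for 197. Replicate 2 was farthest for 8 of 10 cholesterol and 6 of 6 fatty acid genes, and replicate 3 for 6 of 10 acute phase and 5 of 9 clock genes.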
